A study of Mus musculus with 6 samples.

Results

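Amino acid and peptide transporters of the mouse prostate were taken as the genes whose symbol is that of a numbered member of the solute carrier families Slc1, Slc3, Slc6, Slc7, Slc15, Slc36, Slc38 or Slc43, which gave 65 of the 34745 genes in the table. The choice rested on the symbol alone and used no measured value. RNA was sequenced from the prostates of 6 male C57BL/6 mice that were young adults at the start. For 12 weeks 3 of them carried a slow-release pellet of testosterone and estradiol under the skin (T + E2 group), and the other 3 had a skin incision that was closed and no pellet (CON group). The pellet is used to produce benign prostatic hyperplasia. No genetic change is named for either group, each library came from another mouse, and no group received testosterone or estradiol alone or an empty pellet, so the separate parts of these agents and of the implant cannot be told apart.

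Cells take up amino acids through carriers that couple them to sodium or protons, or that exchange an amino acid outside for another inside. Slc1 holds glutamate and neutral amino acid carriers, and Slc38 holds carriers of glutamine and other amino acids. Slc6 holds the sodium- and chloride-coupled carriers of neurotransmitters, taurine, creatine and some amino acids. The light chains of Slc7 pair with a heavy chain of Slc3 that brings them to the cell surface, and the cationic members of Slc7 act alone. Slc15 carries small peptides with protons, Slc36 carries small amino acids with protons, and Slc43 holds carriers of large neutral amino acids and a carrier of purine bases. The prostate is a secretory gland whose fluid holds large amounts of protein, and leucine that enters through the pair Slc7a5 and Slc3a2 is sensed by the growth kinase complex mTORC1.

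The libraries held between 14816146 and 16555549 counts on genes, and a count of 3, used as the limit of detection, stood for 0.181 to 0.202 CPM, read counts scaled by the size of the library. Limits of this kind cover counting error only. Mouse numbers only name the mice. The labelled tissue was checked with marker genes of prostate secretory cells, luminal cells and basal cells, all of which had counts. Of 6 secretory products of the prostate 2 fell in the T + E2 group, Pbsn and Tgm4 (log2 fold changes -3.29 and -2.91), and 2 rose, Msmb and Spink1 (1.10 and 0.72). The call of Spink1 was lost with limma and without CON mouse 3 or T + E2 mouse 1 or 2 (adjusted p = 0.0502 to 0.0952). Genes of the seminal vesicle, a neighbouring gland, stood apart in 2 libraries, CON mouse 2 with a sum of 10325 CPM and T + E2 mouse 2 with 643, against 0.629 to 4.11 in the other mice. In RNA from a whole organ, fewer cells of a type and less RNA in each cell cannot be told apart.

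Levels of the transporters are given as FPKM, fragments scaled by transcript length and library size, which allows genes to be set side by side, and differences as log2 fold changes of the T + E2 group against the CON group from the read counts. A gene was called when its p-value, adjusted over all 15580 genes tested, was under 0.05, and a called gene with an absolute log2 fold change over 1 is referred to as a DEG. Of the 65 transporters, 6 had no counts in any mouse (Slc15a5, Slc6a16, Slc6a18, Slc6a3, Slc6a5 and Slc7a9) and 13 had too few to be tested, which left 46. The 13 included Slc1a1, Slc1a6, Slc1a7, Slc7a12, Slc7a13, Slc7a15, Slc36a3, Slc38a3 and Slc38a8, and except for Slc1a1, with 54 counts in CON mouse 2, none had more than 13 counts in a mouse. Among the 46 tested, 13 (28.3%) were called lower and 6 (13.0%) higher in the T + E2 group. Over all tested genes 9.25% were called lower and 10.4% higher (19.6% in all), so the share of lower calls among the transporters stood above that of the whole table and the share of higher calls close to it. DEGs numbered 7 lower (15.2%) and 3 higher (6.52%), beside 3.38% and 4.27% of all tested genes (7.64% in all). The median log2 fold change of the 46 tested transporters was -0.19, and that of all tested genes was -0.0021. Without CON mouse 3 the calls fell to 6 lower and 3 higher. They were 7 lower without T + E2 mouse 1 or T + E2 mouse 2 and 8 lower without CON mouse 2. Calls over all tested genes fell as well, from 3061 with all mice to 1929 without CON mouse 3. They were 2102 without T + E2 mouse 1, 1978 without T + E2 mouse 2 and 2130 without CON mouse 2. With all mice, 38 of the 46 were over the count minimum in every mouse and 8 were not.

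**Figure D1:**
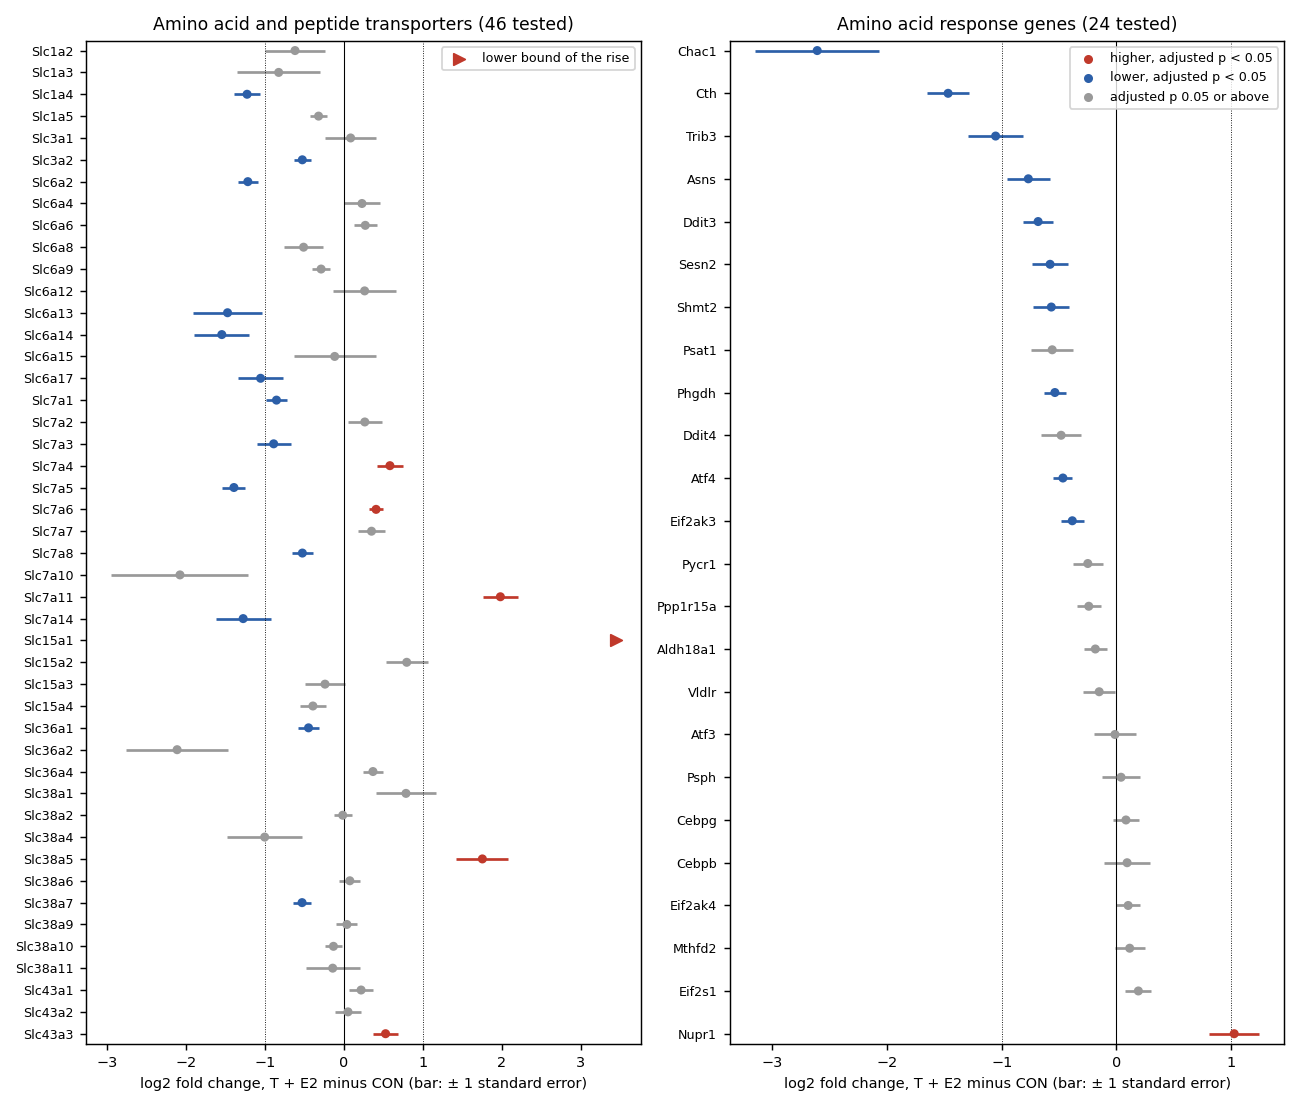
Log2 fold change of the T + E2 against the CON group with 1 standard error for the 46 tested transporters in family order (left) and for 24 tested genes of the amino acid response in order of size (right), with red for genes called higher, blue for genes called lower and grey for the rest. Dotted lines mark a log2 fold change of 1 in either direction, the arrowhead is the lower bound for Slc15a1 (3.44), and blue points outnumber red ones by 13 to 6 on the left and 10 to 1 on the right.

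The whole repertoire was led by few genes. In the CON group Slc1a5, Slc7a5 and Slc7a8 had the highest FPKM and made up 40.3 to 43% of the FPKM summed over all 65 transporters, and the same genes made up 29.8 to 32.3% among T + E2 mice. The order in the T + E2 group was Slc1a5, Slc38a10 and Slc38a1, and Slc7a5 moved from the second to the 6th place. Slc1a5, Slc3a2, Slc7a4, Slc7a5, Slc7a8, Slc38a2 and Slc38a10 stood at an FPKM of at least 10 in all 6 mice, while 30 transporters were under 1 in all of them. Summed FPKM over the 65 transporters was 430, 403 and 431 among CON mice and 327, 314 and 362 among T + E2 mice. These sums did not overlap, and their means were 421 ± 15.5 and 334 ± 24.8 (SD, n = 3).

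By family, the sum of Slc7 was 146 ± 11 FPKM (SD, n = 3) in CON and 93.7 ± 11.6 in T + E2. This family held the largest part of the gap between the sums. The sum of Slc1 was 75.4 ± 3.56 FPKM in CON and 57.0 ± 5.10 in T + E2, and that of Slc3 was 33.0 ± 3.00 and 22.5 ± 2.19. In both families, as in Slc7, the groups were apart. The sums of Slc6 (37.0 ± 5.52 FPKM in CON and 26.7 ± 3.30 in T + E2) and Slc36 (20.8 ± 0.896 and 17.4 ± 1.81) were also apart and lower. That of Slc15 was apart and higher (4.65 ± 0.490 FPKM in CON and 6.46 ± 1.16 in T + E2). In Slc43 the mice overlapped (10.5 ± 0.512 and 13.5 ± 2.87). The sum of Slc38 was 93.6 ± 9.70 FPKM in CON and 96.9 ± 3.35 in T + E2, with overlapping mice.

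**Figure D2:**
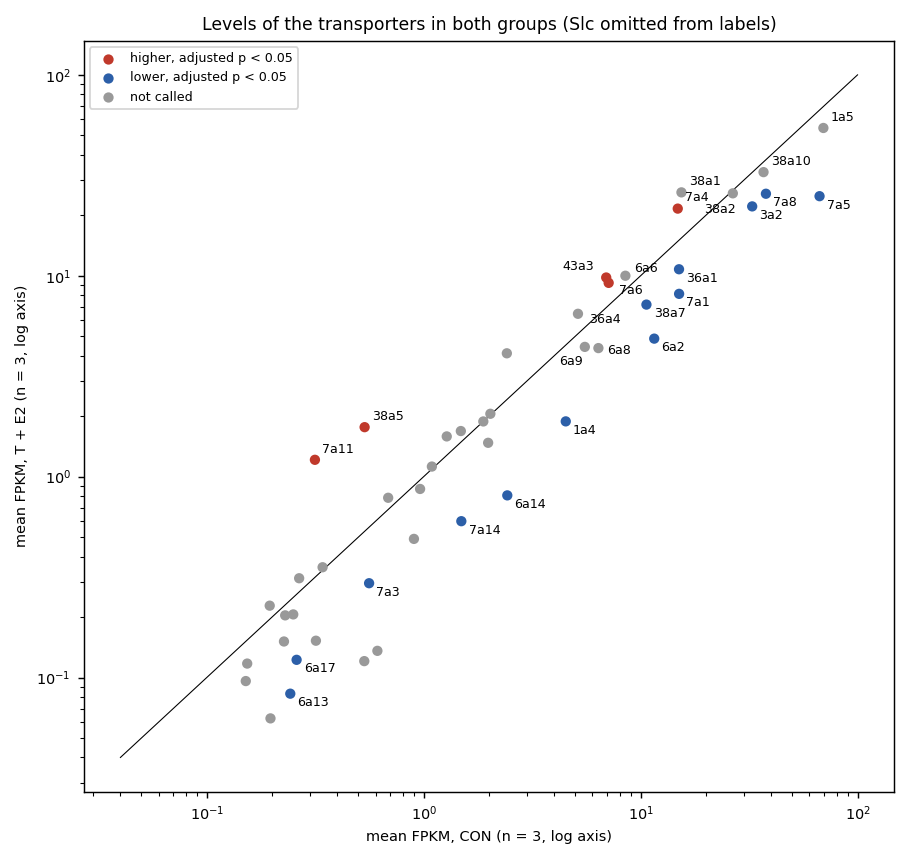
Mean FPKM of the T + E2 group (n = 3) against that of the CON group (n = 3), both on log axes, for the 48 transporters with a mean of at least 0.05 in both groups, with the line of equal levels. Slc7a5 lies farthest below the line among the genes over 10 FPKM (66.8 against 24.9), and Slc7a11 and Slc38a5 lie farthest above it (0.315 against 1.21 and 0.534 against 1.76).

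The carrier of large neutral amino acids at the cell surface fell in both of its parts. Slc7a5 (chr8:121881150-121907694 of build GRCm38), the light chain LAT1 that exchanges leucine and other large amino acids, had an FPKM of 68.0, 58.4 and 74.0 for CON and 24, 21.1 and 29.5 for T + E2. The lowest CON mouse was above the highest T + E2 mouse, and Slc7a5 fell 2.62-fold (log2 fold change -1.39, SE 0.15, adjusted p = 0.000609), with a call in all 15 alternatives. Slc3a2 (chr19:8706882-8723369), the heavy chain 4F2hc, had an FPKM of 35.0, 29.4 and 33.7 for CON and 22.5, 19.8 and 24.1 for T + E2. The groups did not overlap and Slc3a2 fell, with a smaller log2 fold change than its partner, -0.53 (SE 0.11, adjusted p = 0.0145). Its call held in 14 of 15 alternatives (adjusted p from 0.000437 to 0.0561) and was lost without CON mouse 3 (adjusted p = 0.0561).

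Slc7a8, the light chain LAT2 for neutral amino acids, had an FPKM of 40.1, 34.5 and 38.8 for CON and 28.4, 21.5 and 26.9 for T + E2. Every T + E2 mouse was below every CON mouse, and the log2 fold change of Slc7a8 was -0.52 (SE 0.13, adjusted p = 0.0281). This call held in 11 of 15 alternatives (adjusted p from 0.00271 to 0.0890) and was lost without CON mouse 1 or 3 or T + E2 mouse 2 or 3 (adjusted p = 0.0576 to 0.0890). Slc7a6, the light chain y+LAT2 that exchanges cationic for neutral amino acids, moved the other way, with an FPKM of 7.49, 7.24 and 6.64 for CON and 8.43, 9.25 and 9.97 for T + E2. All T + E2 mice were above all CON mice, and Slc7a6 rose 1.33-fold (log2 fold change 0.41, SE 0.09, adjusted p = 0.0178), a call that held in 12 of 15 alternatives (adjusted p from 0.0181 to 0.0650) and was lost without CON mouse 2 or 3 (adjusted p = 0.0587 to 0.0650). Slc7a7, the related light chain y+LAT1, was not called at 0.35 (SE 0.17, adjusted p = 0.178), and its 3' end overlaps Oxa1l on the opposite strand, a gene called lower at -0.42 (SE 0.09, adjusted p = 0.0177). Slc7a10, the light chain Asc-1 for small neutral amino acids, had counts of 5, 55 and 18 for CON and 11, 4 and 3 for T + E2 and was not called, at -2.07 (SE 0.87, adjusted p = 0.132).

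The balance among these chains was followed as ratios of FPKM in each mouse. FPKM of Slc7a5 per FPKM of Slc3a2 was 1.94, 1.99 and 2.20 among CON mice and 1.07, 1.07 and 1.22 among T + E2 mice. The same ratio of Slc7a5 to Slc7a8 was 1.70, 1.69 and 1.91 among CON mice and 0.847, 0.983 and 1.10 among T + E2 mice. Neither ratio overlapped between the groups (p = 0.1 each, exact permutation test, two-sided, the smallest p that 3 against 3 mice allow). Slc7a5 made up 58, 56.7 and 61% of the summed FPKM of the 6 light chains among CON mice and 37.7, 38.5 and 42.6% among T + E2 mice. The sum itself was 117, 103 and 121 FPKM among CON mice and 63.7, 54.9 and 69.3 FPKM among T + E2 mice, and per FPKM of Slc3a2 it was 3.35 to 3.61 among CON mice and 2.77 to 2.87 among T + E2 mice. With these, 7 ratios and sums were computed, and each gave the same p of 0.1, also after adjustment over the 7. The ratios say nothing of protein levels or of pairs at the membrane.

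**Figure D3:**
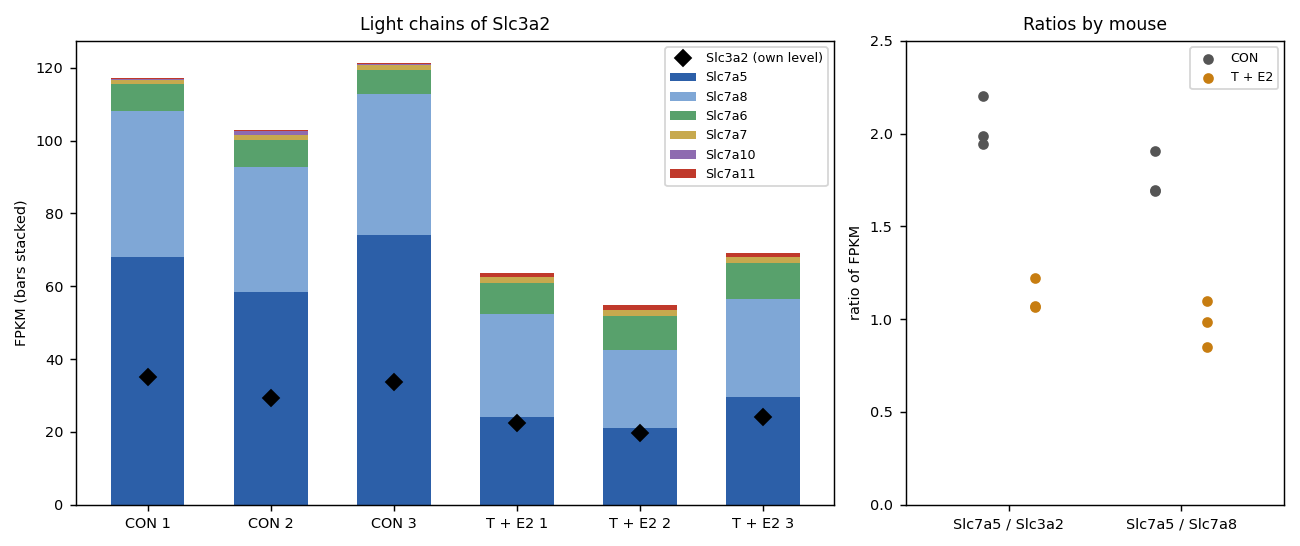
Left, FPKM of the 6 light chains that pair with Slc3a2, stacked for each mouse, with the level of Slc3a2 itself as a diamond; right, ratios of FPKM by mouse. The part of Slc7a5 shrinks from 58.4 to 74.0 FPKM among CON mice to 21.1 to 29.5 among T + E2 mice, and both ratios are lower in every T + E2 mouse than in any CON mouse.

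Slc7a11 was the light chain that rose most. Slc7a11 (chr3:49892526-50443614), known as xCT, exchanges glutamate for cystine, which supplies cysteine for glutathione. It had an FPKM of 0.434, 0.253 and 0.258 for CON and 1.05, 1.38 and 1.21 for T + E2, low levels beside those of Slc7a5. All T + E2 mice were far above all CON mice, and Slc7a11 rose 3.95-fold (log2 fold change 1.98, SE 0.22, adjusted p = 0.000841), with a call in all 15 alternatives. FPKM of Slc7a11 per FPKM of Slc7a5 was 0.00638, 0.00434 and 0.00349 among CON mice and 0.0436, 0.0653 and 0.0411 among T + E2 mice, again without overlap. Cd44, a surface protein whose variants hold xCT at the membrane, fell (log2 fold change -1.09, SE 0.11, adjusted p = 0.000584). Of the enzymes that make glutathione, Gss, the synthetase, fell (log2 fold change -0.77, SE 0.14, adjusted p = 0.00820), while the subunits of glutamate-cysteine ligase were not called (Gclc 0.29, adjusted p = 0.105, and Gclm 0.32, adjusted p = 0.262). Cth, which makes cysteine from cystathionine, fell (log2 fold change -1.47, SE 0.19, adjusted p = 0.00149), and Cbs, the enzyme before it, rose (log2 fold change 1.31, SE 0.12, adjusted p = 0.000290).

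The promoter of Slc7a11 is known for elements that bind Atf4, the transcription factor of the amino acid response, and such elements are shown here because Slc7a11 and Slc1a4, both with these letters in their promoters, moved in opposite directions. Promoters of RefSeq on GRCm38.p6, from 250 bases before to 50 after the start, were found for 46 of the 65 transporters and 14 of the 19 called. The letters TGATGNAA were searched on both strands and stood in 3.97% of all 32851 promoters. Counted by gene, 4.51% of 27025 genes had them in a promoter. Of the 46 transporters 4 did, Slc1a4, Slc7a7, Slc7a11 and Slc15a5. Slc15a5, which had no counts, is not shown. The windows follow on the strand of the gene (minus in each), with the matched letters in capitals and distances given for their first base.
Slc7a11, 66 bases before the start (chr3:50443662-50443689): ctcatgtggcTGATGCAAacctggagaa
Slc7a11, 47 bases before the start (chr3:50443643-50443670): cctggagaatTTGCATCAtcatgcagcc
Slc1a4, 4 bases before the start (chr11:20332700-20332727): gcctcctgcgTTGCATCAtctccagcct
Slc7a7, 1 base before a start (chr14:54417928-54417955): acctagaagcTGATGCAAcagcttcccc
Slc7a7, 141 bases before a start (chr14:54418068-54418095): cgcttgggctTGATGAAAggttcactgg
The windows of Slc7a11 overlap and hold a pair of matches, 1 on each strand, and Slc1a4 holds 1 match on the opposite strand. Slc7a7 has more than 1 start in RefSeq, and the first of its matches is also 243 bases before another. A match is a run of letters and no measured binding site. The oestrogen element, searched as GGTCA and its inverted copy with 3 free bases between them, stood in 0.07% of all promoters, and the androgen element, AGAACA and its inverted copy with 3 free bases between them, in 0.009%. Neither stood in a promoter of the 46 transporters. No promoter window was at hand for Slc7a5, Slc6a2, Slc7a3, Slc7a4 and Slc43a3.

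Among the carriers of cationic amino acids, Slc7a1, which takes up arginine, lysine and ornithine in most cells, had an FPKM of 15.8, 14.1 and 15.2 for CON and 8.34, 6.74 and 9.30 for T + E2. The groups were apart and Slc7a1 fell 1.81-fold (log2 fold change -0.85, SE 0.13, adjusted p = 0.00307), with a call in all 15 alternatives. Slc7a3, a relative with a narrower range of tissues, was under 1 FPKM in every mouse, with 0.545, 0.611 and 0.525 for CON and 0.262, 0.289 and 0.334 for T + E2. It fell as well (log2 fold change -0.89, SE 0.22, adjusted p = 0.0250), and that call held in 7 of 14 alternatives (adjusted p from 0.0250 to 0.0864) and was lost without CON mouse 1, 2 or 3 or T + E2 mouse 1 or 2 (adjusted p = 0.0520 to 0.0864) and with DESeq2 (adjusted p = 0.0770). Slc7a2 was not called, at 0.27 (SE 0.22, adjusted p = 0.425). Slc7a14, a lysosomal member of the family, had an FPKM of 1.89, 1.6 and 0.979 for CON and 0.309, 0.824 and 0.668 for T + E2 and fell 2.42-fold (log2 fold change -1.27, SE 0.35, adjusted p = 0.0380). Its groups were apart by a small gap, and the call held in 6 of 14 alternatives (adjusted p from 0.00127 to 0.0982) and was lost without CON mouse 1 or 2 or T + E2 mouse 1 or 3 (adjusted p = 0.0623 to 0.0982) and with limma on log2 FPKM (adjusted p = 0.0507 to 0.0710).

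Slc7a4, counted with the cationic carriers by sequence and with no settled substrate, had an FPKM of 17.1, 13.8 and 13.7 for CON and 25.6, 17.3 and 21.9 for T + E2. The groups were just apart, with CON mouse 1 close to T + E2 mouse 2, and Slc7a4 rose 1.5-fold (log2 fold change 0.58, SE 0.16, adjusted p = 0.0416). Its exons overlap those of P2rx6, an ATP-gated channel gene on the opposite strand, over 554 bases, and P2rx6 rose (log2 fold change 1.66, SE 0.10, adjusted p = 3.61e-05). Whether the counting used the strand is not given in the sources used here, so reads of both genes may not have been kept apart. The call of Slc7a4 held in 8 of 15 alternatives (adjusted p from 0.00397 to 0.126) and was lost without CON mouse 2 or 3 or T + E2 mouse 1 or 3 (adjusted p = 0.0853 to 0.126) and with limma on log2 FPKM (adjusted p = 0.0657 to 0.0721).

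Slc1a4 and Slc1a5 are the neutral amino acid exchangers ASCT1 and ASCT2. Slc1a4 (chr11:20302180-20332713) had an FPKM of 5.43, 3.85 and 4.28 for CON and 1.62, 2.19 and 1.84 for T + E2. All T + E2 mice were below all CON mice, and Slc1a4 fell 2.34-fold (log2 fold change -1.22, SE 0.16, adjusted p = 0.00177), with a call in all 15 alternatives. Slc1a5, a main route of glutamine uptake and the transporter with the highest FPKM in both groups, had 65.1, 71.5 and 72.2 for CON and 51.8, 50.9 and 60.5 for T + E2. These groups were also apart, but Slc1a5 was not called, at -0.32 (SE 0.10, adjusted p = 0.0633). It was called in 5 of 15 alternatives (adjusted p from 0.0240 to 0.169). These used all mice: DESeq2 (adjusted p = 0.0240), total-count scaling (0.0477) and limma on log2 FPKM (0.0415 to 0.0448). The glutamate carriers of the family were at or under 1.76 FPKM in every mouse. Slc1a3 had counts of 94, 307 and 75 for CON and 99, 112 and 58 for T + E2, with CON mouse 2 far above the rest, and a log2 fold change of -0.82 (SE 0.53, adjusted p = 0.305) that was 0.10 without CON mouse 2. Slc1a2 was not called at -0.62 (SE 0.38, adjusted p = 0.282), and Slc1a1, Slc1a6 and Slc1a7 were not tested.

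Of the 9 tested members of Slc38, 1 was called higher and 1 lower (22.2% in all), a share near the 19.6% of all tested genes. Slc38a5, a sodium-coupled carrier of glutamine, serine and glycine, had an FPKM of 0.288, 0.671 and 0.644 for CON and 2.04, 1.61 and 1.63 for T + E2. Every T + E2 mouse was far above every CON mouse, and Slc38a5 rose 3.37-fold (log2 fold change 1.75, SE 0.33, adjusted p = 0.00861), with a call in all 15 alternatives. Slc38a7, which exports glutamine from lysosomes, had an FPKM of 10.7, 10.3 and 10.9 for CON and 7.74, 6.24 and 7.57 for T + E2 and fell 1.44-fold (log2 fold change -0.53, SE 0.11, adjusted p = 0.0142). Its groups were apart, and the call held in 14 of 15 alternatives (adjusted p from 0.00276 to 0.0525) and was lost without CON mouse 3 (adjusted p = 0.0525).

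The more abundant members of Slc38 were not called. Slc38a2, a carrier that many cells raise when amino acids are short, had an FPKM of 29.9, 25.6 and 24.3 for CON and 23.4, 24.4 and 29.4 for T + E2, and its log2 fold change was -0.01 (SE 0.11, adjusted p = 0.948). The mice of the groups were interleaved. Slc38a10, a member with little known of its substrates, had an FPKM of 34.2, 36 and 40.4 for CON and 34.7, 30.7 and 33.0 for T + E2 and a log2 fold change of -0.13 (SE 0.11, adjusted p = 0.448). Slc38a1, a carrier of glutamine in many tissues, had an FPKM of 21.2, 6.33 and 18.8 for CON and 25.2, 27.3 and 25.6 for T + E2, with CON mouse 2 far below the others. Its log2 fold change of 0.79 (SE 0.37, adjusted p = 0.178) was not called, while without CON mouse 2 it was 0.41 and was called (adjusted p = 0.0492, from 0.0492 to 0.323 over the fits without 1 mouse). CON mouse 2 was also the mouse with the highest sums of seminal vesicle, adipocyte and skeletal muscle genes. The parts of those tissues in the value were not tested. Slc38a9, the lysosomal arginine sensor, was not called at 0.04 (SE 0.13, adjusted p = 0.865), nor were Slc38a4, Slc38a6 and Slc38a11. Transcripts of Slc38a6 share long stretches with other genes, so its counts are uncertain.

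In Slc6, a pair of carriers known from neurons fell. Slc6a2 (chr8:92960079-93001667), which takes noradrenaline back up into sympathetic nerve endings, had an FPKM of 10.4, 12.4 and 11.9 for CON and 3.95, 5.17 and 5.47 for T + E2. The groups stood far apart, and Slc6a2 fell 2.32-fold (log2 fold change -1.21, SE 0.13, adjusted p = 0.000609), with a call in all 15 alternatives. Slc6a17, a carrier of neutral amino acids into synaptic vesicles, had a low FPKM of 0.261, 0.260 and 0.258 for CON and 0.0770, 0.112 and 0.179 for T + E2. The CON mice were nearly equal and above all T + E2 mice, and Slc6a17 fell 2.08-fold (log2 fold change -1.05, SE 0.29, adjusted p = 0.0386), a call that held in 5 of 14 alternatives (adjusted p from 0.0148 to 0.123) and was lost without CON mouse 1, 2 or 3 or T + E2 mouse 1 or 2 (adjusted p = 0.0791 to 0.118) and with limma on log2 FPKM (adjusted p = 0.0961 to 0.123). Slc6a4, the serotonin carrier, was not called, at 0.23 (SE 0.23, adjusted p = 0.513).

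Marker genes of nerve and glia moved with these transporters. Of the 6 genes in that list, all tested, 5 were called lower, among them Snap25, Elavl4, Tubb3 and Sox10, and none was at 0. Sox10, a glial transcription factor, fell (log2 fold change -1.66, SE 0.24, adjusted p = 0.00259), and Tubb3, a neuronal tubulin, fell (log2 fold change -1.43, SE 0.35, adjusted p = 0.0242). The call of Tubb3 was lost without CON mouse 1, CON mouse 2 or CON mouse 3 (adjusted p = 0.0516 to 0.0581). The summed level of the 6 genes was 195 to 257 CPM among CON mice and 59.5 to 125 among T + E2 mice, with T + E2 mouse 1 lowest, the mouse that was also lowest in Slc6a2, Slc6a17 and Slc7a14. The part of nerve content in the fall of these 3 transporters was not tested.

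**Figure D4:**
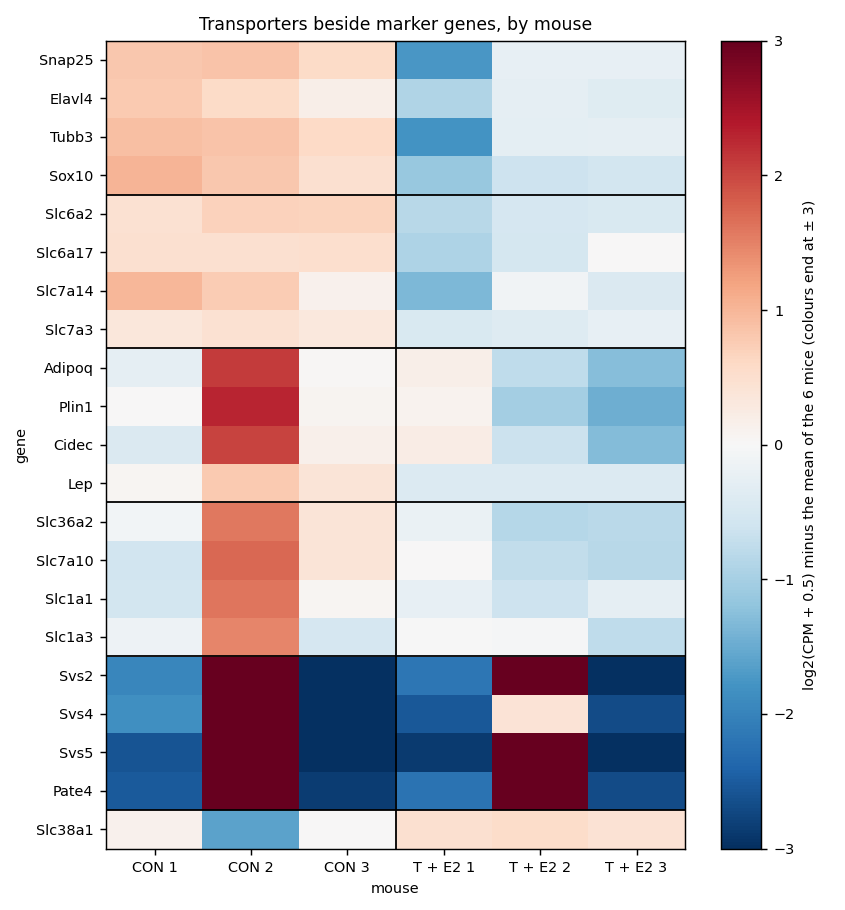
Level of marker genes and transporters in each of the 6 mice, as log2 of CPM with 0.5 added, minus the mean of the 6 mice of that gene (red above the mean, blue below, colours ending at 3 in either direction). The 4 nerve and glia markers drawn and Slc6a2, Slc6a17, Slc7a14 and Slc7a3 are blue to near white among T + E2 mice, adipocyte markers stand out in CON mouse 2 together with Slc36a2, Slc7a10, Slc1a1 and Slc1a3, and seminal vesicle genes in CON mouse 2 and T + E2 mouse 2.

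Other members of Slc6 that fell were low in both groups. Slc6a14, a carrier of neutral and cationic amino acids found in epithelia, had an FPKM of 1.75, 3.90 and 1.64 for CON and 0.750, 0.844 and 0.825 for T + E2. CON mouse 2 was high, every T + E2 mouse was below every CON mouse, and Slc6a14 fell 2.92-fold (log2 fold change -1.54, SE 0.35, adjusted p = 0.0183). Without CON mouse 2 the log2 fold change was -1.04 (adjusted p = 0.0228). The call held in 12 of 15 alternatives (adjusted p from 0.000389 to 0.0616) and was lost without T + E2 mouse 1, 2 or 3 (adjusted p = 0.0534 to 0.0616). Slc6a13, the GABA and taurine carrier GAT2, had counts of only 13, 12 and 12 for CON and 6, 5 and 2 for T + E2, and it passed the count filter through the CON group alone. Its log2 fold change was -1.47 (SE 0.43, adjusted p = 0.0486), and a call was made in 2 of 14 alternatives (adjusted p from 0.0428 to 0.223), with none without any 1 mouse.

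Slc6a6, the taurine carrier, had an FPKM of 9.20, 9.71 and 6.62 for CON and 9.12, 9.38 and 11.5 for T + E2 and was not called, at 0.27 (SE 0.15, adjusted p = 0.235). Slc6a8, the creatine carrier, had an FPKM of 4.40, 9.26 and 5.51 for CON and 3.97, 5.10 and 4.02 for T + E2, with CON mouse 2 again apart from the other CON mice, and was not called (log2 fold change -0.51, SE 0.25, adjusted p = 0.193). Without CON mouse 2 its log2 fold change was -0.16. Slc6a9, a glycine carrier, had groups apart and a log2 fold change of -0.29 (SE 0.12, adjusted p = 0.124), and was called in 1 of 15 alternatives, without T + E2 mouse 3 (adjusted p = 0.0306, from 0.0306 to 0.304 over the fits without 1 mouse). Its exons overlap Ccdc24 on the opposite strand. Slc6a12 and Slc6a15 were not called, and Slc6a7, Slc6a11 and Slc6a19 had counts in at least 1 mouse and were not tested.

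Among the peptide carriers was a gene with counts in the T + E2 group only. Slc15a1 (chr14:121459621-121505254), the proton-coupled carrier PEPT1 best known from the small intestine, had counts of 0, 0 and 0 for CON and 24, 55 and 20 for T + E2, or an FPKM of 0.508, 1.06 and 0.432 among T + E2 mice. It passed the count filter through the T + E2 group alone. Against 3 counts in each CON library the T + E2 level was higher by at least 10.9-fold, a bound that was not itself tested. The test on the counts called Slc15a1 (adjusted p = 0.00336), as did all 14 alternatives that tested it. Since Slc15a1 entered the test through the group where it is high, these calls are no separate support for its rise. Slc15a2, the related carrier PEPT2, stood higher in level, with an FPKM of 2.95, 1.55 and 2.75 for CON and 2.97, 5.07 and 4.29 for T + E2. The lowest T + E2 mouse was just above the highest CON mouse, and Slc15a2 was not called, at 0.80 (SE 0.26, adjusted p = 0.0697). It was called in 2 of 15 alternatives (adjusted p from 0.0102 to 0.210). These were DESeq2 with all mice (adjusted p = 0.0102) and the fit without T + E2 mouse 1 (adjusted p = 0.0495). Slc15a3 and Slc15a4, lysosomal carriers of histidine and peptides, were not called, at -0.24 (SE 0.25, adjusted p = 0.533) and -0.39 (SE 0.17, adjusted p = 0.143).

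The sodium-proton exchanger Slc9a3 (NHE3), which in the intestine restores the proton gradient that PEPT1 uses, had an FPKM of 0.461, 0.243 and 0.175 for CON and 64.7, 39.8 and 35.5 for T + E2 and rose (log2 fold change 7.36, SE 0.39, adjusted p = 2.35e-05). Peptidases that release amino acids and small peptides from larger ones went in both directions. Anpep, aminopeptidase N, rose to 3.47 times its CON level (log2 fold change 1.79, SE 0.10, adjusted p = 3.51e-05), and Ggt6, Dpep1 and Dpep2 rose with log2 fold changes of 1.79, 0.83 and 1.54. Ace, which removes dipeptides from peptide ends, fell (log2 fold change -0.49, SE 0.12, adjusted p = 0.0244), and so did Lap3, a leucine aminopeptidase of the cytosol (log2 fold change -0.94, SE 0.13, adjusted p = 0.00219). In the whole list of 27 partner proteins and peptidases, 24 were tested, 11 (45.8%) were called higher and 3 (12.5%) lower, beside 10.4% and 9.25% of all tested genes, and their median log2 fold change was 0.41. Higher calls fell to 7 without CON mouse 1, CON mouse 2, CON mouse 3 or T + E2 mouse 1. Bsg, a chaperone of transporters at the cell surface, rose (log2 fold change 1.80, SE 0.14, adjusted p = 0.000160), as did Nedd4l, a ubiquitin ligase that removes transporters from it (0.90).

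Of the proton-coupled carriers in Slc36, Slc36a1, which exports small amino acids from lysosomes, had an FPKM of 14.5, 15.8 and 14.8 for CON and 9.73, 9.43 and 13.2 for T + E2 and fell 1.36-fold (log2 fold change -0.45, SE 0.13, adjusted p = 0.0438). The groups were apart by a small gap between T + E2 mouse 3 and CON mouse 1. The call held in 7 of 15 alternatives (adjusted p from 0.00957 to 0.136) and was lost without CON mouse 1, 2 or 3 or T + E2 mouse 1 or 2 (adjusted p = 0.0761 to 0.136) and with limma on log2 FPKM (adjusted p = 0.0505 to 0.0542). Slc36a4, a high-affinity relative, was not called, with groups apart and a log2 fold change of 0.37 (SE 0.12, adjusted p = 0.0712), but was called without CON mouse 1 (adjusted p = 0.0373, from 0.0373 to 0.198 over the fits without 1 mouse). In Slc43, Slc43a3, a carrier of purine bases and not of amino acids, had an FPKM of 6.57, 6.96 and 7.29 for CON and 7.29, 10.1 and 12.0 for T + E2 and a log2 fold change of 0.53 (SE 0.16, adjusted p = 0.0494). T + E2 mouse 1 was level with CON mouse 3, and the call held in 4 of 15 alternatives (adjusted p from 0.0105 to 0.128) and was lost without CON mouse 1, 2 or 3 or T + E2 mouse 2 or 3 (adjusted p = 0.0904 to 0.128) and with total-count scaling, no filter on low counts, a minimum FPKM of 1 in 3 mice or limma on log2 FPKM (adjusted p = 0.0504 to 0.126). Slc43a1, the carrier LAT3 for large neutral amino acids that is known from the prostate, was not called (log2 fold change 0.22, SE 0.15, adjusted p = 0.346), nor was Slc43a2 (log2 fold change 0.05, SE 0.17, adjusted p = 0.856). Slc3a1, the heavy chain that pairs with Slc7a9, which had no counts, overlaps Prepl on the opposite strand. It had an FPKM of 0.439, 0.263 and 0.325 for CON and 0.315, 0.367 and 0.380 for T + E2 and was not called (log2 fold change 0.09, SE 0.33, adjusted p = 0.878).

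A few low transporters were highest in the library with the highest adipocyte markers. The summed level of the 4 adipocyte genes was 143 CPM in CON mouse 2, 26.2 and 34.8 in the other CON mice and 11.8 to 36.7 among T + E2 mice, and none of the 3 tested was called. In the same library Slc36a2, a carrier of glycine and proline, had its highest count, with 13, 58 and 22 for CON and 11, 5 and 5 for T + E2. Slc1a1, a glutamate carrier, had counts of 6, 54 and 14 for CON and 9, 6 and 9 for T + E2, likewise highest in CON mouse 2, as was Slc7a10. The log2 fold change of Slc36a2 was -2.11 (SE 0.64, adjusted p = 0.0543), not called, and was -1.27 without CON mouse 2. That of Slc7a10 was -0.88 without this mouse. Without CON mouse 1 both were called (adjusted p = 0.0310 for Slc36a2 and 0.0469 for Slc7a10), and over the fits without 1 mouse the adjusted p reached 0.167 and 0.477. With all mice, Slc36a2 was also called with DESeq2 (adjusted p = 0.0226) and with no filter on low counts (adjusted p = 0.0475). CON mouse 2 also had the highest sums of seminal vesicle genes (10325 CPM) and of skeletal muscle genes (273 CPM). The parts of fat and of these tissues in the values were not tested, and in 1 mouse they cannot be told apart.

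**Figure D5:**
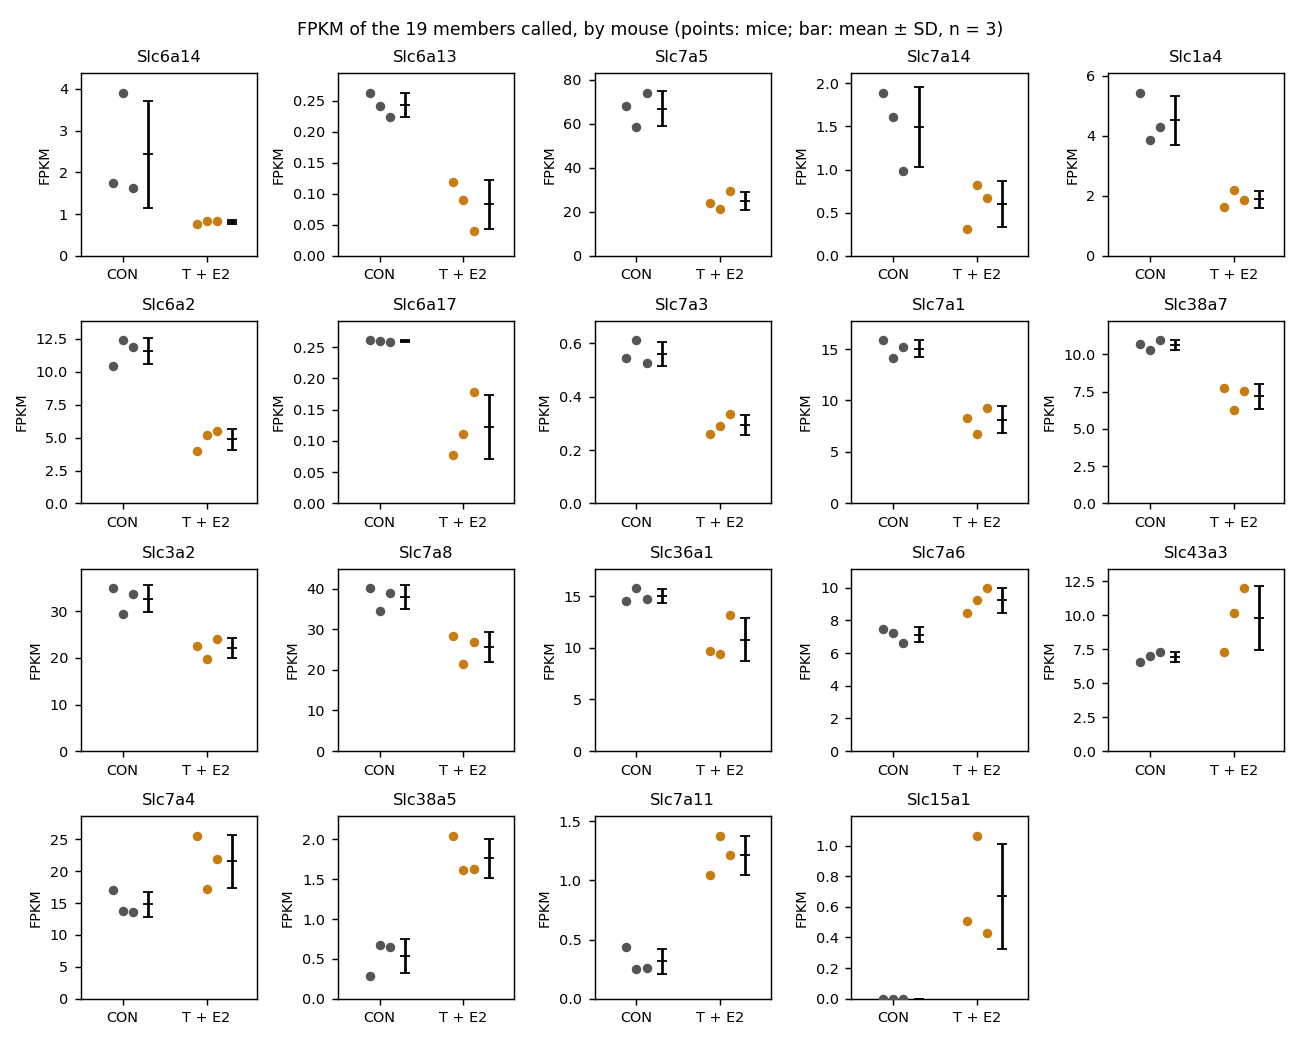
FPKM in each mouse (points) and mean ± SD (bars, n = 3) for the 19 transporters called, each with its own axis from 0, lower ones first and higher ones last. The groups do not overlap in any panel but that of Slc43a3 (7.29 FPKM in both CON mouse 3 and T + E2 mouse 1), with a wide gap for Slc7a5 (58.4 FPKM or more against 29.5 or less) and a narrow one for Slc7a4 (17.1 or less against 17.3 or more).

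In CPM, all 19 called transporters had groups that did not overlap, and 7 more had such groups without a call (Slc1a5, Slc6a9, Slc7a7, Slc15a2, Slc36a2, Slc36a4 and Slc38a1). Groups were thus apart in CPM for 26 of the 46 tested (56.5%), 16 below and 10 above, where 40.7% of all tested genes had groups apart, 20.7% below and 20% above. In FPKM the groups of Slc43a3 overlapped. Calls in every alternative that tested the gene were had by 7 of the 19, Slc1a4, Slc6a2, Slc7a1 and Slc7a5 among the lower and Slc7a11, Slc15a1 and Slc38a5 among the higher. Slc15a1 passed the count filter through the T + E2 group alone and Slc6a13 through the CON group alone. For both, groups that do not overlap are therefore no separate support, and neither are their calls.

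Several of the transporters that fell belong, as background, to the genes that Atf4 raises when amino acids run short. That response was followed in a list of 25 genes, which also holds Atf4 and genes that act before it (Eif2ak3, Eif2ak4 and Eif2s1). Of the 24 tested, 10 (41.7%) were called lower and 1 (4.17%) higher, beside 9.25% and 10.4% of all tested genes. Their median log2 fold change was -0.32. Eif2ak3 was among the lower calls (log2 fold change -0.38, SE 0.10, adjusted p = 0.0292), as was Atf4, so the share is not one of targets alone. Atf4 itself had an FPKM of 154, 145 and 153 for CON and 102, 105 and 112 for T + E2 and fell (log2 fold change -0.47, SE 0.08, adjusted p = 0.00665), with the groups apart. Chac1, which degrades glutathione, had an FPKM of 31.0, 8.48 and 7.85 for CON and 2.66, 2.07 and 2.80 for T + E2. CON mouse 1 was far above the other CON mice, and the log2 fold change was -2.61 (SE 0.54, adjusted p = 0.0134). It was -1.67 without CON mouse 1 (adjusted p = 0.00223). The call was lost without T + E2 mouse 2 (adjusted p = 0.0623, log2 fold change -2.48). Trib3, an inhibitor of Atf4 that is also its target, fell (log2 fold change -1.05, SE 0.24, adjusted p = 0.0197), and Asns, asparagine synthetase, fell (log2 fold change -0.77, SE 0.19, adjusted p = 0.0239). Phgdh and Shmt2, enzymes of serine and glycine synthesis, fell by 0.54 and 0.57 on the log2 scale. Nupr1, a stress-induced chromatin protein, rose (log2 fold change 1.03, SE 0.22, adjusted p = 0.0145), and that call was lost without CON mouse 3 or T + E2 mouse 2 (adjusted p = 0.0509 and 0.0522). Lower calls in the list fell to 6 without CON mouse 3 and to 4 without T + E2 mouse 2. Slc7a11, a known target of the same factor, rose while most called genes of the list fell.

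Genes of amino acid sensing by mTORC1 were called about as often as all tested genes (10.4% higher and 9.25% lower). Of 26 tested, 3 (11.5%) were called higher (Fnip2, Sesn1 and Fnip1) and 3 (11.5%) lower (Rragd, Sesn2 and Sesn3), with a median log2 fold change of -0.006. Rragd, a GTPase that docks mTORC1 on the lysosome, fell (log2 fold change -0.73, SE 0.13, adjusted p = 0.00744), and Fnip2, a partner of folliculin, rose (log2 fold change 0.57, SE 0.11, adjusted p = 0.00839). Sesn2, a leucine sensor, fell (log2 fold change -0.58, SE 0.16, adjusted p = 0.0380), and its relative Sesn1 rose (log2 fold change 0.51, SE 0.12, adjusted p = 0.0215). Higher calls fell to 1 without CON mouse 2, CON mouse 3 or T + E2 mouse 2, and lower calls to 1 without CON mouse 1, CON mouse 3 or T + E2 mouse 2. Sesn1 was not called without CON mouse 2, CON mouse 3 or T + E2 mouse 2 (adjusted p = 0.0600 to 0.0759), nor Sesn2 without any 1 mouse except T + E2 mouse 1 (0.0519 to 0.101).

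Enzymes that use the transported amino acids were called lower more often than higher. Of 46 enzymes 41 were tested, 15 (36.6%) were called lower, beside 9.25% of all tested genes, and 5 (12.2%) higher, near the 10.4% of all tested genes, and the median log2 fold change was -0.33. Prodh, which opens proline breakdown, had an FPKM of 19.9, 19 and 22.3 for CON and 5.53, 6.03 and 6.69 for T + E2 and fell (log2 fold change -1.71, SE 0.11, adjusted p = 5.25e-05). Gpt2, the mitochondrial alanine aminotransferase, fell (log2 fold change -1.65, SE 0.12, adjusted p = 0.000119). The branched-chain enzymes Bcat2 and Bckdhb, which act on leucine, isoleucine and valine, both fell by 0.83 on the log2 scale. Hal, which breaks down histidine, had a low FPKM of 0.0768, 0.0671 and 0.0621 for CON and 0.827, 0.833 and 0.307 for T + E2 and rose (log2 fold change 3.28, SE 0.46, adjusted p = 0.00239). Tdo2, which opens tryptophan breakdown, rose from low levels (log2 fold change 1.86, SE 0.44, adjusted p = 0.0216), a call lost without CON mouse 1, CON mouse 3 or T + E2 mouse 2 (adjusted p = 0.0610 to 0.0780). Glul, glutamine synthetase, had the highest level of the 5 enzymes called higher, with an FPKM of 157, 173 and 170.2 for CON and 249.6, 224 and 242 for T + E2. Lower calls fell to 8 without CON mouse 3 or T + E2 mouse 2, and higher calls to 3 without CON mouse 3. The lists share genes, so their counts are not separate. Asns, Phgdh, Shmt2 and Cth, all called lower, count both here and in the amino acid response. Psat1 and Pycr1, not called, are also in both. Sesn2 counts in the amino acid response and in mTORC1 sensing. These lists were chosen with results of these data known and are no independent evidence of a direction.

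Markers of other cell types were called in part, beside 10.4% of all tested genes called higher and 9.25% lower. Of 4 tested urothelial markers 3 were called higher, and the summed level of the 5 in that list was 423 to 643 CPM among CON mice and 1374 to 1702 among T + E2 mice, with Upk2 at 2.20 (SE 0.33, adjusted p = 0.00322). Smooth muscle markers had 2 of 6 called lower, with sums of 4085 to 5074 and 3580 to 3921 CPM. Those calls were lost without T + E2 mouse 2 for Acta2, and for Des without any 1 mouse except CON mouse 2 (adjusted p = 0.0660 to 0.122). Luminal markers had 2 of 5 called higher and 1 lower, with log2 fold changes of 1.18 for Epcam and -0.54 for Krt18. The other higher call, Cdh1 (0.34), was lost in 12 of 15 alternatives, among them every fit without 1 mouse (adjusted p = 0.0548 to 0.122). Basal markers had 1 of 4 called higher, Trp63 (0.57). Neuroendocrine markers had 1 of 3 called higher, Chga (1.41), while their median log2 fold change was -0.059. Their sums overlapped, with 58.2 to 74.1 CPM among CON mice and 53.5 to 82.2 among T + E2 mice. No marker of fibroblasts, endothelium, leukocytes or skeletal muscle was called. What part these cell types had in the levels of the transporters was not tested.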

How the data were processed

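The authors deposited 1 table of 6 prostate libraries (total RNA, TruSeq paired-end kit) with whole-number counts per gene, not normalized, and FPKM values derived by the authors from the same counts. Bowtie2, TopHat and HTSeq are named in the submitters' processing notes. Their versions, the annotation and the use of strand are not given in the sources used here. Coordinates are those of the table and lie on build GRCm38. Groups came from the sample labels.

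Counts were tested in R 4.3.3 with edgeR 4.0.16 (filterByExpr with a minimum count of 10 and a minimum total of 15, TMM scaling, quasi-likelihood F-test, Benjamini-Hochberg adjustment over 15580 genes), with both groups of 3 in 1 fit and no covariate. The SE of a log2 fold change is its size over the root of F. The script was tested on simulated data. Alternatives were other scalings, other filters, DESeq2 1.42.0, limma 3.58.1 on log2 FPKM, the replicate number as a block and each mouse left out in turn. The methods of the study name DESeq2 for the groups. Overlaps and similar transcripts came from GENCODE M21 and BLAST+ 2.17.0+. Python 3.11.15 and matplotlib 3.10.9 served for the figures.

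Libraries of a group differed by more than counting noise (chi-square per degree of freedom from 16.7 to 36.4), and none was counted as a repeat of another. The 65 transporters were taken by symbol alone. The lists and the rule for named genes, with its 13 members named whatever their value, were chosen with earlier results of these data known. Named were all DEGs, the 4 largest other calls in each direction, the 3 highest FPKM of each group, 13 members whatever their value, and the 2 largest calls of each list in each direction. Other genes are named after their values were seen. A fold against a group with at most 3 counts in every library is a bound against 3 counts in each. Protein sequences were not used here. A few genes are not reported here.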

Additional observations from a re-analysis of the deposited data

How the results depend on the processing

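Numbers of called transporters depended on the number of mice and on how low genes were treated. From 13 called lower, leaving out 1 mouse gave 6 to 10, and from 6 called higher it gave 3 to 6. Over all tested genes, leaving out 1 mouse gave 1929 to 2741 calls, from 3061 with all mice. From 7 DEGs that were lower, it gave 3 to 6, a minimum FPKM of 1 in 3 mice gave 4, and limma gave 4 with 0.1 added to FPKM, 4 with 0.01 and 2 with 1. With 1 added, no higher DEG was left (0 of 3). Leaving out 1 mouse gave, for the amino acid response, 4 to 10 lower (10 with all mice) and 0 to 1 higher (1). For mTORC1 sensing it gave 1 to 3 higher (3) and 1 to 2 lower (3), for the enzymes 8 to 14 lower (15) and 3 to 7 higher (5), and for partners and peptidases 7 to 8 higher (11). The log2 fold change of Slc38a2 ran from -0.10 to 0.074 over the fits without 1 mouse and changed sign without CON mouse 1 (0.074), T + E2 mouse 1 (0.031) or T + E2 mouse 2 (0.027). That of Slc3a1 ran from -0.077 to 0.29 and changed sign without CON mouse 2 (-0.077). None of these was called. The other transporters named by the rule kept their direction in the alternatives run. Libraries scaled by total counts shifted the median of all genes to -0.040 and moved no called transporter to the other direction.

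Equal replicate numbers did not pair the mice: deviations of mice with the same number correlated at -0.0516, 0.0275 and 0.0463. With the number as a replicate block, 8 transporters were called lower and 5 higher, and 4 lower and 3 higher were DEGs. Over all tested genes this block left 2174 calls, where the fit without it had 3061. The block ended the calls of Slc36a1, Slc6a13, Slc6a17, Slc7a14, Slc7a3 and Slc7a6 (adjusted p = 0.0569 to 0.0908), and it is 1 of the alternatives counted for each transporter. Fits that left out a mouse had 2 mice in a group and so less power. Genes under about 1 FPKM, such as Slc6a13, Slc6a17 and Slc7a3, rested on few counts, and transporters with no counts may be present below the 3 counts that a library can show.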
